A study of Drosophila melanogaster with 62 samples.

Results

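The trans hotspots of wild-type pupal leg discs were 102 bins of 1 kb, out of 85083 bins on chromosomes 3L, 3R, X and 4, to which a 4C viewpoint on chromosome 2L gave an unusually high number of reads. 4C-seq counts the DNA fragments ligated to 1 chosen fragment, the viewpoint, and here the viewpoint was PRE2, a Polycomb response element of *dac*, the gene of a transcriptional co-factor of leg development. A bin was taken as a hotspot when each of the 3 wild-type (WT) pupal libraries had a count there and when its mean share of a library's counts on these chromosomes (trans counts) was in the top 0.5% of bins. The top held 425 bins, with a mean share of at least 0.0143%, of which 102 had a count in all 3 libraries, 218 in 2 libraries and 105 in 1 library. The rule therefore used the PRE2 counts of the pupal WT libraries, and these are described below without a test.

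The other libraries came from 8 groups in all, each of 3 samples counted from both PRE2 and a viewpoint named gypsy2, which lies on 2L near PRE2. They were embryos with the gypsy1 insertion, embryos labelled WT (replicates 1 to 3), embryos with the gypsy2 insertion, embryos titled WT (replicates 4 to 6), larval leg discs with the gypsy2 insertion, larval WT leg discs, pupal leg discs with the gypsy2 insertion and pupal WT leg discs. gypsy1 and gypsy2 are insertions of the gypsy insulator at *dac*, and all flies were grown at 1 temperature on standard medium. The titles of embryo replicates 4 to 6 say WT whereas their genotype field gives an insertion, so they are called titled WT here, and the deposited gypsy2 columns carry the mark "enh", whose meaning is not given in the sources used here. Ages, promoters and the number of founder lines were not given, and nothing said that the samples came from separate cultures or animals, so that p-values measure only the spread between samples. The 3 libraries of 1 group from 1 viewpoint are called a set, and 15 sets besides the one that chose the hotspots were compared with it.

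A Polycomb response element is a DNA element that recruits Polycomb group proteins, which keep developmental genes silent, and such elements can meet in the nucleus, even between chromosomes. The genes for ribosomal RNA (rRNA) stand in long tandem arrays on X and Y in *Drosophila*, and R1 and R2 are retrotransposons that insert at fixed sites within the 28S rRNA gene. Reads from such repeats can be placed at several copies in a genome assembly.

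The sequences below show the kinds of bin that made up the hotspots, in the dm6 assembly. In the first 3, capitals mark GATC and CATG, which are sites of enzymes often used for 4C. They are the bin with the highest share, which aligned with the 28S gene (X:23278200-23278359, plus strand), the only recurring bin of unique sequence, in an intron of *Snap25* (3L:24165186-24165345, plus strand), and the highest bin that did not recur, which overlaps the telomeric retrotransposon HeT-A (4:1306171-1306330, plus strand).
28S bin on X: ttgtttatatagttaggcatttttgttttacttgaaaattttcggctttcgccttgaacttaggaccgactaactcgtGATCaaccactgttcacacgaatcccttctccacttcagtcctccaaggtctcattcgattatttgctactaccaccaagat
Snap25 bin on 3L: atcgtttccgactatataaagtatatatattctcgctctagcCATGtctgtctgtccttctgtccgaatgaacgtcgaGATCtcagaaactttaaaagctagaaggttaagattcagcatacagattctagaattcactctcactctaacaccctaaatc
HeT-A bin on 4: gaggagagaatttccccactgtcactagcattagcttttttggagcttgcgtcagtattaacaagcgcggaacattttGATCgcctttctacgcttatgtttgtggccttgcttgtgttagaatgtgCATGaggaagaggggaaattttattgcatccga

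The next 3 sequences are shown because their rRNA part stopped or began at the same point. Capitals mark the bases that aligned with the 28S gene, and lower case the bases beyond the end of the alignment. In the bin at X:23535001-23536000 (shown: X:23534976-23535076, minus strand) the alignment stopped at 28S position 2651. In the bins at X:23473001-23474000 (shown: X:23473423-23473523, minus strand) and X:23223001-23224000 (shown: X:23223663-23223793, plus strand) it began at position 2652. The bin at 23223001 overlaps annotated R2 and R1A1 elements.
X 23535001 bin: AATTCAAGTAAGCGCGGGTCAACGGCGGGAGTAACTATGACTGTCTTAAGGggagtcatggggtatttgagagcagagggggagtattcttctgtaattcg
X 23473001 bin: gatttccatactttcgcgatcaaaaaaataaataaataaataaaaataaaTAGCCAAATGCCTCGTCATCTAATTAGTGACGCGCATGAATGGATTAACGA
X 23223001 bin: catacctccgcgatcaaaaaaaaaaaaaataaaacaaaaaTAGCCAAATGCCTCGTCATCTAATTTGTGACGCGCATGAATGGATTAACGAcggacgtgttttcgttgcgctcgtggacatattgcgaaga

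The depth of the libraries differed widely. Total counts lay between 800269 and 25904672 in the 48 value columns, with a median of 7993785, and between 4.32% and 16.3% of them were trans counts. The pupal WT libraries from PRE2 held 731356, 854263 and 1144509 trans counts. These were spread over only 13.1% to 15% of the trans bins, so that a bin with any count held 59.4, 67.0 and 103 counts on average in replicates 1, 2 and 3. Embryo WT libraries of replicates 1 to 3 held far fewer trans counts from PRE2, between 85599 and 156117, but had a count in 39.6% to 50.5% of the bins. No molecular identifiers were described, and how far reads of 1 bin are copies of each other was not tested, so that counting limits given below cover counting error only.

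The hotspots were found on every chromosome examined. There were 28 on 3L, 33 on 3R, 31 on X and 10 on chromosome 4, which is 0.996, 1.03, 1.32 and 7.41 hotspots per 1000 bins. Bins with a count in all 3 libraries were likewise densest on chromosome 4, at 26.7 per 1000 bins, against 7.83 on 3L, 7.08 on 3R and 5.39 on X. In total 14 hotspots (13.7%) lay in the pericentric parts, taken as 3L from position 23000001, 3R up to position 4200000 and X from position 22500001, against 12.2% of all bins. Of these 14 hotspots, 11 were on X.

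Most hotspots stood alone. There were 101 separate places when adjacent bins were joined, the only pair being the bins from X:744001 to 746000 in *sdk*, the gene of the cell adhesion protein Sidekick. Joining hotspots at most 10 kb apart left 93 places, 8 of them with more than 1 hotspot, and the largest held 3 hotspots between X:23216001 and 23229000. At 100 kb there were 75 places, the largest with 7 hotspots, from 4:1070001 to 1307000. The median distance to the next hotspot on the chromosome was 219 kb. In the bins 1 kb away, the mean share was 0.000492% for the hotspots that recurred in other sets (defined below), lower than the 0.00118% over all bins. It was 0.00197% for the other hotspots, which is higher than over all bins but under the threshold of 0.0143%.

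The 3 pupal WT libraries rarely had the same hotspot at the same level. The library with the highest share held a median of 57.4% of the summed shares of a hotspot, and in 70 of 102 hotspots it held more than 50%. In 20 hotspots the lowest of the 3 counts was below 10. Taken alone, only 3 hotspots were in the top 0.5% of bins of each pupal WT library, 4 were in that of 2 libraries, 58 in that of 1 library and 37 in none. The 3 hotspots that passed in each library were at X:23278001-23279000, X:23473001-23474000 and X:23216001-23217000, and each aligned with the 28S gene.

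**Figure D1:**
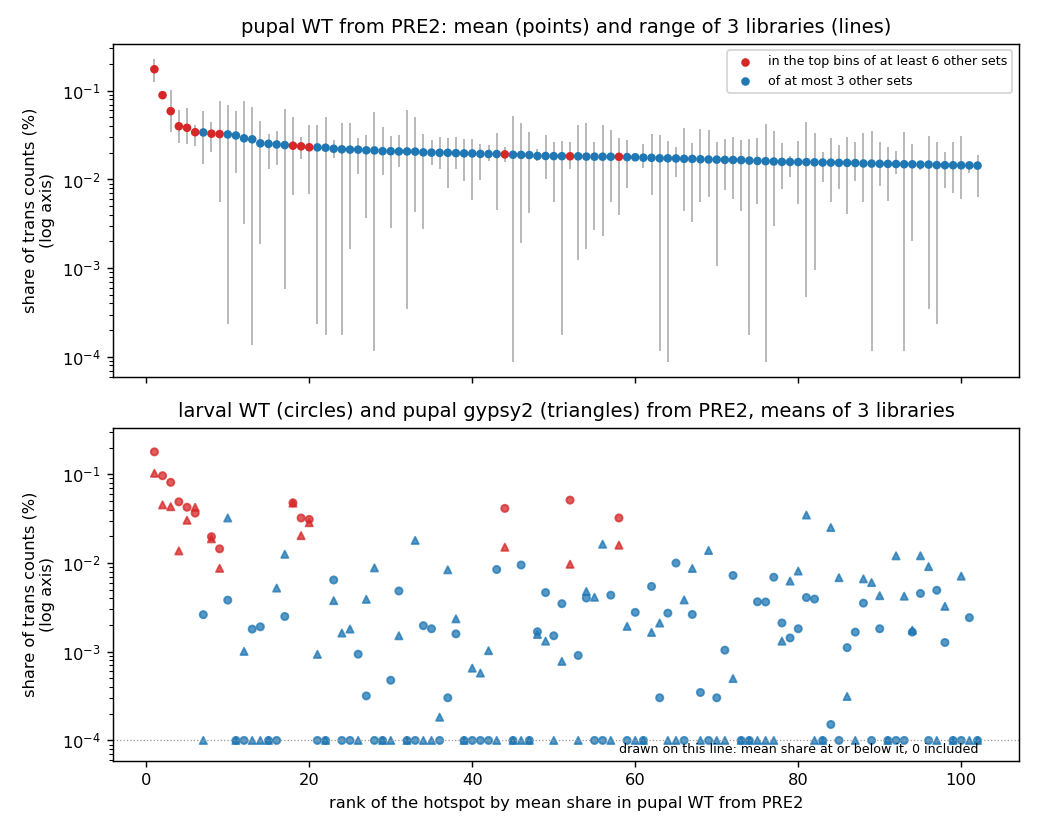
Share of trans counts (%, log axis) of the 102 hotspots, ordered by their mean share in pupal WT from PRE2. The upper panel gives the mean and the range of the 3 pupal WT libraries that chose the hotspots, and the lower panel the means of larval WT (circles) and pupal gypsy2 (triangles) from PRE2; hotspots in the top bins of at least 6 other sets (red, n = 14) lie at the top of the lower panel, while most of the other 88 (blue) lie lower, many of them at 0.

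Bins were also chosen on 2 of the libraries and read in the third, which had no part in that choice. With replicate 1 held out, 213 bins were chosen and 62 of them (29.1%) had a count in replicate 1, against 14.5% of all bins. With replicate 2 held out, 71 of 224 chosen bins (31.7%) had a count there, against 15% of all bins. With replicate 3 held out, the numbers were 73 of 254 (28.7%), against 13.1% of all bins. Of the chosen bins, 11, 6 and 5 reached the top 0.5% of bins of replicate 1, 2 and 3 when it was held out. Without the recurring hotspots, these last numbers were 4 of 202, 0 of 214 and 1 of 240. The bins removed here had been chosen partly on the held-out library, where each needed a count. These last numbers are therefore a description and no check.

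The hotspots fell into a small group that recurred nearly everywhere and a large group that did not. Of the 102, 67 were in the top 0.5% of bins in none of the 15 other sets, 12 in 1 set, 8 in 2 sets and 1 in 3 sets. The other 14 were each in the top of at least 6 sets, and 5 of them in all 15. These 14 are called recurring hotspots, and the 88 found in at most 3 other sets non-recurring hotspots. The grouping was made from the other sets, so that their values there are a description too.

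**Figure D2:**
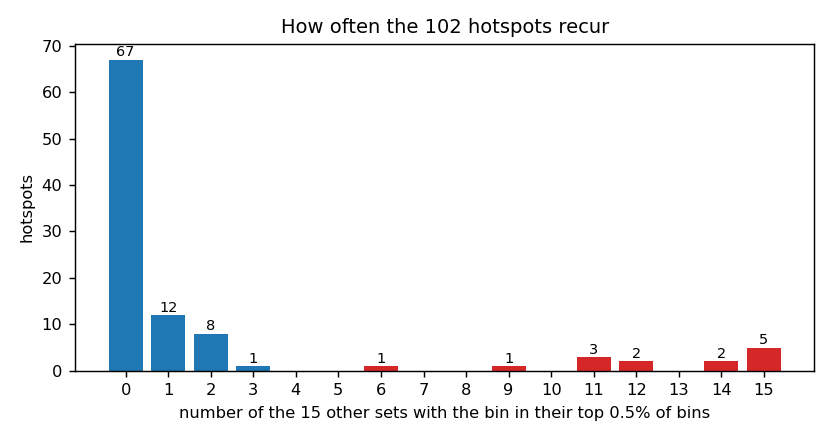
Number of the 102 hotspots (bars) by the number of the 15 other sets whose top 0.5% of bins held them. The bars form 2 groups with no hotspot at 4 or 5 sets: 88 hotspots at 0 to 3 sets, 67 of them at 0, and 14 hotspots at 6 to 15 sets.

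Every other set shared between 9 and 17 of the 102 hotspots. From PRE2, the number of hotspots in the top 0.5% of bins was 15 in gypsy1 embryos, 16 in WT embryos of replicates 1 to 3, 16 in gypsy2 embryos and 13 in titled WT embryos. It was 9 in gypsy2 larvae, 14 in WT larvae and 17 in gypsy2 pupae. From the gypsy2 viewpoint, whose reads the rule did not use, it was 13, 16, 13 and 15 in the same order of embryo groups, then 10 and 12 in larval discs. It was 13 in gypsy2 pupal discs and 14 in the pupal WT libraries themselves, against 17 from PRE2 in pupal gypsy2. The samples that gave the hotspots from PRE2 thus shared 14 of them from a neighbouring viewpoint, a number within the range of the larval and embryo sets. All 14 hotspots found in larval WT from PRE2 were recurring ones, and in larval gypsy2 from PRE2 the 9 fell to 3 without replicate 3.

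Lists made by the same rule in the other sets differed in size, between 65 and 410 bins. The list of larval WT from PRE2 had 147 bins, and the 14 shared bins were 13.7% of the hotspots and 9.52% of that list.

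**Figure D3:**
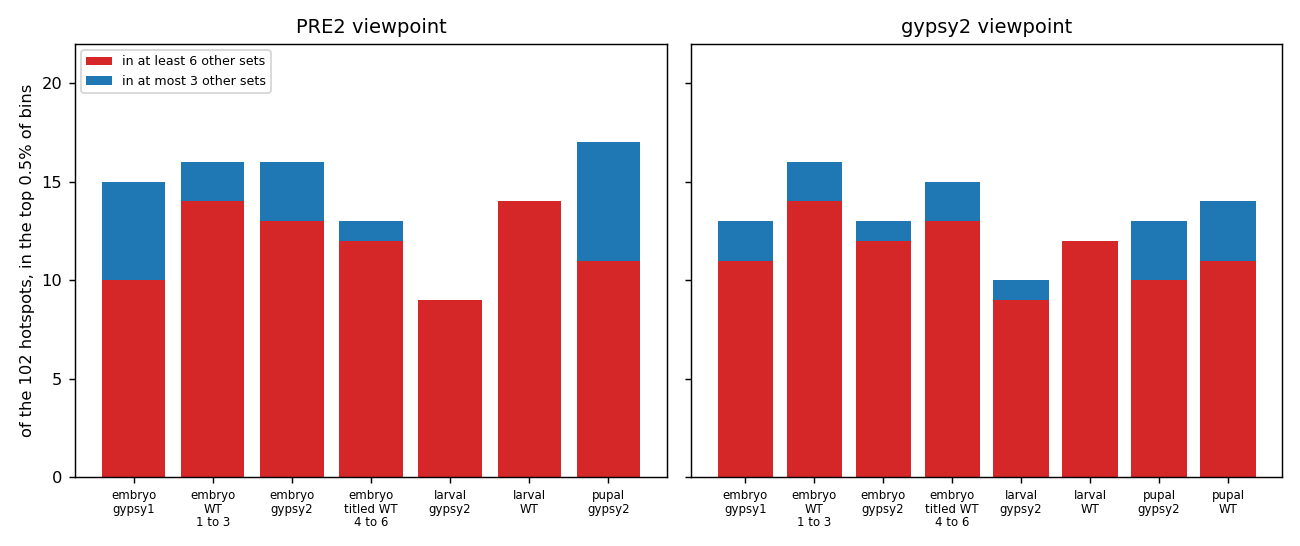
Number of the 102 hotspots in the top 0.5% of bins of each other set, for the PRE2 viewpoint (left) and the gypsy2 viewpoint (right), with recurring hotspots in red and non-recurring ones in blue. The totals lie between 9 and 17, and recurring hotspots make up 9 to 14 of them in every set.

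The 2 groups also differed in how much of the libraries they held. Recurring hotspots together took 0.627% ± 0.145 of the trans counts of pupal WT from PRE2 (SD, n = 3), and between 0.233% and 0.821% in the 45 other libraries, with a median of 0.479%. Non-recurring hotspots took 1.65% ± 0.205 in the libraries that chose them, but between 0.0986% and 0.393% in the others, with a median of 0.207%. In pupal gypsy2 from PRE2 they took 0.315% ± 0.0827, in pupal WT from the gypsy2 viewpoint 0.233% ± 0.0324 and in larval WT from PRE2 0.153% ± 0.0255 (SD, n = 3 each).

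Elsewhere the non-recurring hotspots still held more counts than the mean bin. In the 15 other sets their mean share was 1.48 to 3.05 times that of the mean trans bin, with a median of 2.11, and the highest ratio was that of pupal gypsy2 from PRE2. Bins that also had a count in all 3 pupal WT libraries but lay below the threshold (508 bins) had ratios of 1.56 to 1.85, with a median of 1.71. The 67 hotspots in the top of no other set had ratios of 1.39 to 2.39, with a median of 1.67. Being in the top of these other sets or not decided which hotspots were among the 67, so their ratios are a description. Recurring hotspots had ratios of 16.3 to 47.8. A non-recurring hotspot had a count in a median of 20.5 of the 45 other libraries, a bin below the threshold in 19, a recurring hotspot in 44 and any trans bin in 13.

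The recurring hotspots were of 3 kinds: 8 bins of rRNA sequence, 5 bins with transposons and the bin in *Snap25*. All but the *Snap25* bin were on X, and 10 of the 14 lay in the last 343 bins of the X assembly, from X:23200001 to 23542270, a stretch with 0.403% of the trans bins. This stretch held 0.609% to 0.888% of the trans counts in pupal WT from PRE2 and 0.305% to 1.07% in the other libraries.

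Alignment to a complete rRNA unit of the assembly (8118 bases) found 48 bins with a match of at least 100 bits, all of them in this stretch. They are 0.0564% of the trans bins, and 8 of them were hotspots, 7.84% of all hotspots. All 8 were recurring. The 8 matched different parts of the unit, and all but the bin at X:23439001 had a 50-base word in common with another hotspot. Whether a read of such a sequence was counted in 1 bin or several is not known here.

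First in rank was the bin at X:23278001-23279000, which holds the annotated 28SrRNA-Psi:CR45862 and part of pre-rRNA:CR45856. It had 1663, 1461 and 1443 counts in pupal WT from PRE2, with a mean share of 0.175% ± 0.0508 (SD, n = 3), and aligned with 28S positions 1011 to 2029 at 96.6% identity. From PRE2 it was also first in WT embryos of replicates 1 to 3, in both larval groups and in pupal gypsy2. Its share was 0.0464% ± 0.00486 in gypsy2 embryos and 0.0474% ± 0.0137 in titled WT embryos, and 0.179% ± 0.0131 in larval WT (SD, n = 3 each).

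Of the 3 hotspots with the highest shares, the most even was at X:23473001-23474000, in no annotated gene. It had 672, 748 and 1009 counts in pupal WT from PRE2, with a mean share of 0.0892% ± 0.00234 (SD, n = 3). Its 28S alignment covered positions 2652 to 3121 at 97.9% identity, from the junction shown above. At X:23216001-23217000, the bin with 28SrRNA-Psi:CR45859 had 303, 867 and 388 counts, so that replicate 2 stood out. It aligned with 28S positions 1563 to 2561 at 99.1% identity.

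The 5 other rRNA bins were lower. Between the 18S and 28S genes, with 97.1% identity, aligned the bin at X:23439001-23440000, which had 470, 213 and 292 counts. In the 18S gene, at 99.5% identity, aligned the bin at X:23432001-23433000, with 109, 431 and 77 counts. At X:23535001-23536000, where the alignment ends at the junction shown above, the libraries had 126, 260 and 266 counts. These values differed up to several-fold between libraries, and no library was the highest in all of them. The pseudogene bin at X:23262001-23263000, with 28SrRNA-Psi:CR41609, had 50, 348 and 248 counts. Counts at X:23282001-23283000, with 18SrRNA-Psi:CR45861, were 191, 133 and 150. The bins at 23216001, 23262001, 23278001, 23432001 and 23473001 were the only bins of all 85083 in the top 0.5% of all 16 sets.

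The 5 transposon bins were less regular. One in an R1A1 element, at X:23228001-23229000, had 443, 285 and 292 counts in pupal WT from PRE2 and was in the top of 14 other sets. The bin at X:23223001-23224000, with R2, R1A1 and 51 bases of 28S (98% identity), had 246, 175 and 508 counts and was in the top of 12 other sets. Sequence of R1A1, gypsy6 and Stalker filled the bin at X:22373001-22374000, which had 117, 649 and 63 counts and was in the top of 6. Replicate 2 thus held most counts of the bin at 22373001. In the retrotransposon rover, the bin at X:22433001-22434000 had 217, 174 and 46 counts and recurred in 9 sets. Within an intron of *RhoU*, the gene of a small GTPase, a bin with a 1360 element at X:10102001-10103000 had 168, 135 and 215 counts and recurred in 11 sets. Some 50-base words of this bin had up to 303 copies in the genome.

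Some of these levels differed between embryo groups whatever the insertion. The bin at X:23439001 had 0.00582% ± 0.00440 in gypsy1 embryos and 0.0169% ± 0.0128 in WT embryos of replicates 1 to 3 from PRE2, both shallow groups. It had 0.0717% ± 0.00537 in gypsy2 embryos and 0.104% ± 0.0270 in titled WT embryos, both deep groups (SD, n = 3 each). The libraries of the first 2 groups did not overlap with those of the other 2, and the highest of them was 0.0315% and the lowest of the others 0.0668%. The rover bin had 0.00144% ± 0.00200 and 0.0141% ± 0.00848 in gypsy1 and WT embryos, against 0.0311% ± 0.00816 in gypsy2 and 0.0273% ± 0.00432 in titled WT embryos. Here the ranges overlapped, with 0.0234% as the highest of the shallow libraries and 0.0226% as the lowest of the deep ones. Depth, replicate numbers and genotype field differ together between these groups and cannot be told apart.

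The *Snap25* bin was the only recurring hotspot of fully unique sequence. *Snap25* encodes a SNARE protein of synaptic vesicle fusion and spans 3L:24074180-24299205, in the pericentric part, and the bin at 3L:24165001-24166000 lies within an intron. All of its 50-base words occurred once in the genome, and none occurred in the region of either viewpoint. It has 1 CATG and 1 GATC, with starts 36 bases apart, as seen in the sequence above. It had 302, 316 and 275 counts in pupal WT from PRE2, an even level, with a mean share of 0.0341% ± 0.00899 (SD, n = 3).

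From PRE2 this bin had a count in all 24 libraries, with shares of 0.00696% at the lowest, 0.0452% at the median and 0.0753% at the highest. Those of pupal WT are among the 24, and in them the rule required a count. From the gypsy2 viewpoint it had a count in 22 of 24 libraries, with a median of 0.0136% and a highest share of 0.0482%. The libraries at 0 were 1 of pupal gypsy2 and 1 of pupal WT. In pupal WT replicate 2, a count of 0 allows a share of up to 0.000155% (3 counts). The share was higher from PRE2 in 19 of the 21 samples other than pupal WT, and the samples overlapped between viewpoints. In gypsy2 larval discs, 1 library went the other way, with 10 counts from PRE2 and 177 from the gypsy2 viewpoint. The bins within 2 kb of it had a mean share of 0.00177% over the PRE2 libraries, with a highest value of 0.0245%.

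**Figure D4:**
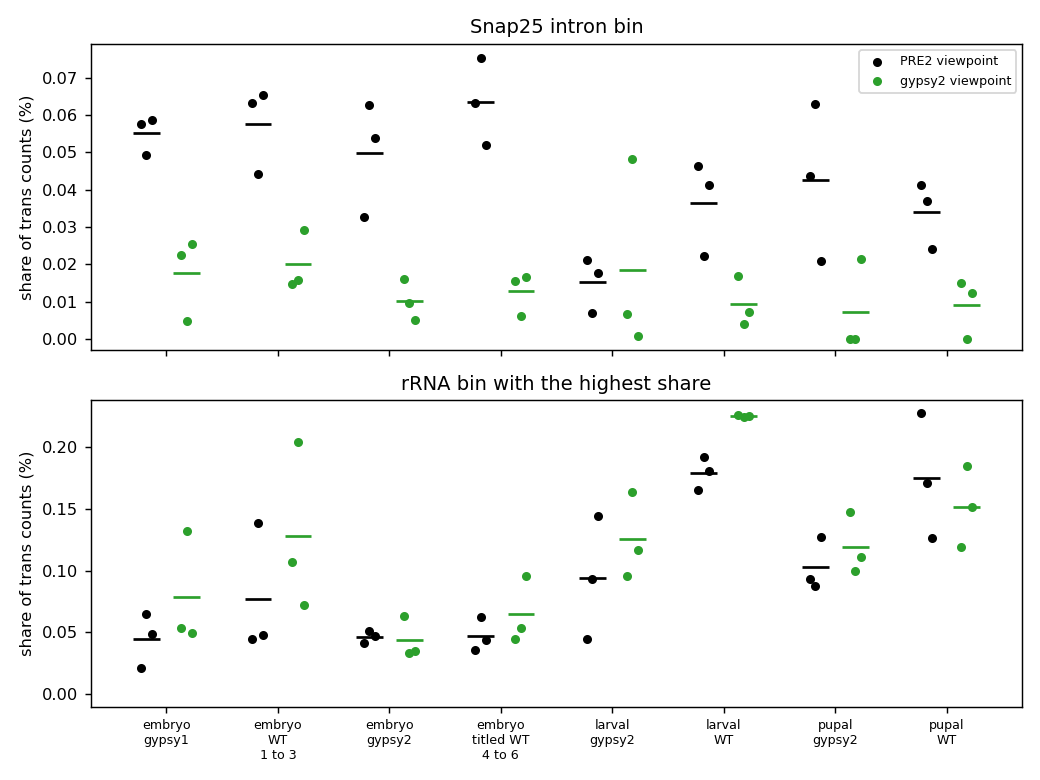
Share of trans counts (%) in every library of the Snap25 intron bin (top) and of the rRNA bin at X:23278001 (bottom), for 8 groups, from PRE2 (black) and the gypsy2 viewpoint (green); points are libraries and lines are means of 3. The Snap25 bin is higher from PRE2 in 7 of 8 groups by the mean, and the rRNA bin is higher from the gypsy2 viewpoint in 6 of 8. Pupal WT, whose PRE2 counts chose the hotspots, is among the groups higher from PRE2 for both bins.

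The other recurring hotspots varied in this. Over these 13, the number of samples in which the share was higher from PRE2 lay between 5 and 17 of 21. It was 5 of 21 for the 28S bins at 23278001 and 23262001, and 17 of 21 for the rover bin, whose median share was 0.0226% from PRE2 and 0.00945% from the gypsy2 viewpoint.

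The difference between viewpoints was tested over all bins in sets that the rule had not used, with edgeR's quasi-likelihood test and the sample as a block. In titled WT embryos, 54383 bins were tested and 1 (0.00184%) passed an adjusted p of 0.05, which was the *Snap25* bin. It had 658, 921 and 807 counts from PRE2, against 133, 74 and 266 from the gypsy2 viewpoint. The shares were 0.0635% ± 0.0116 and 0.0128% ± 0.00570 (SD, n = 3 each), a log2 fold change of 2.46 (SE 0.43, edgeR adjusted p = 0.000420). The call was lost with DESeq2 (log2 fold change 2.40, adjusted p = 0.690) and without replicate 5 (1.90, adjusted p = 0.141). Of the 102 hotspots, 94 passed the filter of a mean count of 5, and their median log2 fold change was 0.36, against 0.18 for all bins tested.

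In the other 2 sets no bin was called. In larval WT, 0 of 22776 bins (0%) passed in edgeR, 2 had an unadjusted p under 0.05, and DESeq2 called 0. The *Snap25* bin had 97, 49 and 79 counts from PRE2, against 65, 18 and 27 from the gypsy2 viewpoint, with a log2 fold change of 2.26 (SE 2.06, edgeR adjusted p = 1). In pupal gypsy2, 0 of 36343 bins (0%) passed in edgeR, 0 had an unadjusted p under 0.05, and DESeq2 called 0. The *Snap25* bin had 558, 673 and 158 counts from PRE2, against 1, 0 and 282 from the gypsy2 viewpoint, so that 1 sample went the other way. The errors of these fits were large, and a difference as large as that in titled WT embryos was not detectable at this spread.

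The insertion was compared with its controls in the same way. In gypsy2 embryos, the bin at X:23439001 was the only one of 55328 bins (0.00181%) to pass against titled WT embryos from PRE2. It had 1358, 821 and 829 counts in gypsy2 embryos, against 1387, 1205 and 1246 in titled WT embryos, with a log2 fold change of -0.69 (SE 0.11, edgeR adjusted p = 7.83e-05). Set against WT embryos of replicates 1 to 3, the same bin was higher in gypsy2 embryos, with a log2 fold change of 1.69 (SE 0.30, edgeR adjusted p = 0.000207) and 27, 12 and 12 counts in WT. The choice of control thus turned the direction. DESeq2 called the bin in neither comparison. The call against titled WT was lost without titled WT replicate 6.

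Against WT embryos of replicates 1 to 3, 5 of 42450 bins (0.0118%) passed, 3 of them hotspots, each a recurring one. The R1A1 bin at X:23228001 had 203, 207 and 292 counts in gypsy2 embryos, against 45, 84 and 47 in WT embryos, with a log2 fold change of -2.02 (SE 0.33, edgeR adjusted p = 1.87e-05). The 28S bin at X:23278001 had a log2 fold change of -1.26 (SE 0.18, edgeR adjusted p = 3.47e-08), with 724, 626 and 552 counts in gypsy2 embryos, against 38, 216 and 50 in WT embryos, and the shares of the groups overlapped. The gypsy2 embryo libraries held 1171421 to 1754169 trans counts and the WT ones 85599 to 156117, so that depth and group cannot be told apart. DESeq2 kept none of the 3 calls, and without WT replicate 2 no hotspot was called and the log2 fold change of the 28S bin was -0.40. In gypsy1 against WT embryos, 0 of 3677 bins (0%) passed in edgeR, 106 had an unadjusted p under 0.05, 10 of them hotspots, and DESeq2 called 1. The 30 hotspots tested had a median of -0.86, against 0.04 for all bins tested. It was -1.32 for the 14 recurring hotspots and -0.13 for the 16 non-recurring ones tested. From PRE2, 14 recurring hotspots were in the top of these WT embryos and 10 in that of gypsy1 embryos. The recurring ones were thus picked partly on these values, and their lower level is a description.

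In larval discs from PRE2, 0 of 14975 bins (0%) passed between gypsy2 and WT in edgeR, 113 had an unadjusted p under 0.05, and DESeq2 called 22, none of them a hotspot. The 14 recurring hotspots all had negative log2 fold changes, with a median of -1.11, against -0.26 for all bins tested. The 34 non-recurring hotspots tested had a median of 0.68. Being high in these sets was part of how recurring hotspots were picked, with 14 in the top of larval WT and 9 in that of larval gypsy2. Their lower values in gypsy2 are therefore a description. For the 28S bin at 23278001 the counts were 87, 134 and 385 in gypsy2 and 347, 422 and 347 in WT, with shares of 0.0942% ± 0.0497 and 0.179% ± 0.0131 (SD, n = 3 each; log2 fold change -1.32, SE 0.71, edgeR adjusted p = 0.428). The gypsy2 libraries had counts in 6.18% to 20.5% of the bins and the WT libraries in 13.3% to 23.3%, and the part of this in the result was not tested. From the gypsy2 viewpoint 12 recurring hotspots were in the top of larval WT and 9 in that of larval gypsy2. There the recurring hotspots had a median of -1.51, against -0.98 for the 50 non-recurring ones tested and -0.64 for all bins. Mean shares of the bins at X:23216001, X:23262001 and in *Snap25* were higher in gypsy2, though their log2 fold changes, with TMM factors, were negative. These shares were 0.0714% against 0.0647%, 0.0411% against 0.0320%, and 0.0186% against 0.00937%. All other recurring hotspots had lower mean shares in gypsy2. In edgeR 0 of 27484 bins (0%) passed, with 127 at an unadjusted p under 0.05. DESeq2 called 427, none of them a hotspot.

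In pupal discs the insertion was tested from the gypsy2 viewpoint only, since the rule had used the PRE2 counts of the WT. No bin of 36118 (0%) passed in edgeR, and 31 had an unadjusted p under 0.05. DESeq2 called 1736 of the 36118 bins, among them 5 of the 71 hotspots tested, and whether these rates differ was not tested. The median log2 fold change was -0.22 over the 71 hotspots tested, against -0.35 over all bins.

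The non-recurring hotspots were mostly unique sequence in or near genes. The highest, the HeT-A bin at 4:1306001-1307000, had 431, 238 and 171 counts in pupal WT from PRE2 and a mean share of 0.0339% ± 0.0226 (SD, n = 3). In pupal gypsy2 from PRE2 it had 0 counts in all 3 libraries, each of which allows a share of up to 0.000395% or less. In pupal WT from the gypsy2 viewpoint it had 84, 1 and 121 counts. It was in the top of 1 of 16 sets, though with a count in all 3 libraries of pupal WT from both viewpoints.

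Others of the 20 highest were more uneven. The bin at 3R:4792001-4793000 in *ctrip*, which encodes a ubiquitin ligase, had 512, 2 and 301 counts in pupal WT from PRE2. In pupal gypsy2 from PRE2 it had 293, 353 and 309. From the gypsy2 viewpoint it had 0, 159 and 1 counts in pupal WT and 0, 0 and 0 in pupal gypsy2. It was in the top of 3 other sets, the most of any non-recurring hotspot. In *f* (forked), which encodes an actin-bundling protein of bristles, an intron bin at X:17261001-17262000 had 167, 506 and 136 counts. A bin of unique sequence with an INE-1 element in 10.3% of its bases, at X:22904001-22905000, had 558, 67 and 36 counts. The highest count was that of replicate 1 in the *ctrip* and INE-1 bins and of replicate 2 in the *f* bin.

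The bin at 3R:28485001-28486000 in *CG1894* had 1, 161 and 757 counts, and the bin at 3L:841001-842000, across *Gr61a* (a gustatory receptor gene) and *JMJD5*, had 338, 16 and 327. The bin at 3L:15216001-15217000, in no gene, had 452, 5 and 124 counts. These held almost no counts in 1 of the 3 libraries. More even were the bin at 3R:18012001-18013000 in *cpo* (couch potato, an RNA-binding protein), with 223, 111 and 369 counts, and that at X:8685001-8686000 in *CAH3* (a carbonic anhydrase), with 260, 124 and 279. Apart from the *ctrip* bin, each of these, the *f* bin and the bin with the INE-1 element was in the top of no other set.

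Chromosome 4 was dense in hotspots in this set and in most others. All 10 of its hotspots were non-recurring by the number of sets, but 7 of 10 were in the top of at least 1 other set, against 14 of the 78 non-recurring hotspots on the other chromosomes (17.9%). Of all bins on chromosome 4, 14% were in the top of at least 1 other set, against 6.05% on the other chromosomes. Lists made by the same rule in the 15 other sets had 0.741 to 23.7 bins per 1000 on chromosome 4, with a median of 8.15, against 0.740 to 4.61 on the others, with a median of 3.51. The chromosome held 2.29% ± 0.109 of the trans counts in pupal WT from PRE2 (SD, n = 3) and set means of 1.92% to 2.74% in the other sets, against 1.59% of the bins. In pupal WT from the gypsy2 viewpoint, 1 bin of chromosome 4 was on the list, with 0.741 per 1000, against 1.07 on the other chromosomes.

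Genes regulated by Polycomb group proteins were represented by 5 hotspots. A list of 59 such genes covered 1.67% of the trans bins and 4.90% of the hotspots, and since the list was chosen with results of these data known and hotspots were chosen on their counts, the shares are a description. None of the 5 recurred in more than 2 other sets. In *NetB*, the gene of a netrin that guides axons, the bin at X:14747001-14748000 had 12, 175 and 492 counts. The bin at 4:705001-706000 in *ey*, the Pax6 gene of eye development, had 317, 189 and 2 counts. In *vvl*, which encodes a POU transcription factor, the bin at 3L:6793001-6794000 had 166, 9 and 303 counts.

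The other 2 were in *sv* (shaven, the Pax2 gene of sense organ development). The bin at 4:1104001-1105000 had 39, 126 and 310 counts, and the bin at 4:1109001-1110000 had 325, 4 and 25. Each of the 5 had a count at or below 39 in at least 1 of the 3 libraries. Those in *ey* and *sv* lie on chromosome 4, where hotspots were densest. How far this accounts for the share of hotspots in listed genes was not tested. Hsp70 copies, *w* and *y*, the Stellate genes and tRNA genes overlapped 0 hotspots. Annotated rRNA genes and pseudogenes covered 0.0282% of the trans bins and 3.92% of the hotspots (4 bins, all recurring).

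The sequence of the bins separated the recurring hotspots from the others. In 1 of 14 recurring hotspots (7.14%) every 50-base word occurred once in the genome, against 86 of 88 non-recurring hotspots (97.7%) and 81.9% of all bins. In 11 of 14 recurring hotspots fewer than 50% of the words were unique, which was so in 0 of 88 non-recurring hotspots and in 11.6% of all bins. No hotspot shared a 50-base word with the region of either viewpoint.

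**Figure D5:**
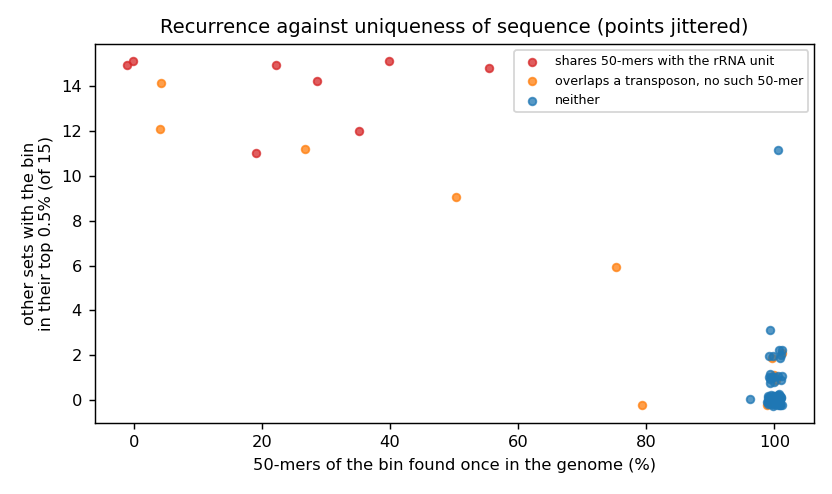
Each point is a hotspot, with the percent of its 50-base words found once in the genome on the x axis and the number of the 15 other sets that had it in their top bins on the y axis (points moved slightly apart). Bins that share such words with the rRNA unit (red, n = 8) lie left of 100% at 11 or more sets, transposon bins (orange, n = 11) are spread, with 5 at 6 or more sets and 6 at 2 or fewer, 86 of the 88 non-recurring hotspots lie at 100%, and the Snap25 bin is the single point at 100% with 11 sets.

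All 102 hotspots contained GATC and CATG, which 13.1% and 6.55% of all bins lacked. Other bins with counts rarely lacked these sites too. GATC and CATG were missing in 0.31% and 0% of the top bins without a count in all 3 libraries. In all bins with a count in all 3, they were missing in 2.30% and 1.48%. Bins without GATC held 1.54% to 8.98% of the trans counts of a library, and bins without CATG 0.621% to 2.16%. Bins without GTAC, another site of 4 bases, made up 16.5% of bins and held 14.1% to 16.8% of the counts, close to their share of bins. Hotspots overlapped an exon in 59.8%, against 43.2% of all bins. This was not particular to them, with 55.9% for all bins with a count in all 3 pupal WT libraries. It was 65.9% for the top bins without a count in all 3. GAGAG, searched on both strands as a motif of GAGA factor, was in 68.6% of the hotspots, against 68.8% of all bins.

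The threshold cut through a continuous range. The 3 hotspots just inside it were the bins at X:9848001-9849000 in *CARPB* (0.0144%), at 3L:28055001-28056000 in no gene (0.0144%) and at 3L:3944001-3945000 in *CG14982* (0.0143%). The 3 bins just outside it were at 3R:19460001-19461000 in *CG31221* (0.0142%), at 3L:8052001-8053000 in *nmo*, which encodes a kinase (0.0142%), and at 3L:20525001-20526000 in *Pss*, which encodes a phosphatidylserine synthase (0.0141%).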

How the data were processed

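4C-seq was measured from 2 viewpoints in 24 samples, and the authors deposited raw read counts per 1-kb bin in 6 tables, with reads aligned by Bowtie to dm6 as given in the submitters' processing notes. No source used here gives the enzymes, the read filters or the handling of reads with several matches or of PCR copies. CUT&RUN samples of the series were not used here. The hotspots, lists and tests were chosen with earlier results of these data known. Shares are percentages of the counts on 3L, 3R, X and 4, and counts were not otherwise changed. Unpaired groups and viewpoints were compared with edgeR 4.0.16 (quasi-likelihood test, TMM factors, R 4.3.3) over all bins with a mean count of at least 5, with Benjamini-Hochberg adjusted p under 0.05, and the sample as a block only between viewpoints. DESeq2 1.42.0, other filters, no normalization factors, a replicate block, thinned libraries, other thresholds and leaving out each replicate were alternatives. The tests were also run on simulated counts whose spread was set beforehand and not taken from these data. Those runs do not show how the tests perform at the spread seen here. Named bins were the 20 highest, the 10 recurring ones highest in larval WT, called hotspots, those in Polycomb-regulated or multicopy genes, and 3 on either side of the threshold. Other hotspots named here were chosen after their values were seen. BLAST+ 2.17.0 aligned bins to an rRNA unit. Genes and repeats came from Ensembl 115. Deviations of same-numbered libraries of compared groups had correlations near 0 (-0.0177 to 0.0229), and their numbers were not taken as pairs. In gypsy1 against WT embryos these correlations were 0.012, 0.0215 and 0.0229. Each of them, though small, was above the highest correlation with another number, so a weak pairing is possible there.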

Additional observations from a re-analysis of the deposited data

Results flagged for a closer look

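The R1A1 bin at X:23228001-23229000 was picked out because, from PRE2, its gypsy2 libraries lay on opposite sides of their control libraries at 2 stages. In embryos its share was 0.0178% in gypsy2 and 0.00877% in titled WT, a difference of 0.00901 percentage points, and every gypsy2 library lay above every titled WT library. In larval discs it was 0.0265% in gypsy2 and 0.0490% in WT, a difference of -0.0224 percentage points, and every gypsy2 library lay below every WT library. Neither difference passed in edgeR, with log2 fold changes of 0.76 (SE 0.95) in embryos and -1.23 (SE 1.76) in larval discs, and the difference between the stages was not tested. Against WT embryos of replicates 1 to 3, with 0.0505%, the embryo difference had the opposite sign (log2 fold change -2.02).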

How the results depend on the processing

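Of the 102 hotspots, 67 were in no other set and 14 were recurring; the top 1% of bins gave 159 hotspots (115 in no other set), the top 0.1% gave 33 (18), the lowest of the 3 shares 474 (386), and the top 0.5% of bins with a count in all 3 libraries only 3 (0 in no other set, all 3 recurring). Outside the pericentric parts 3 hotspots recurred, and with 1 replicate left out there were 213 to 254 hotspots, 160 to 184 of them in no other set. Within the top 5% of bins the hotspots shared with other sets were 31 (pupal gypsy2 from PRE2), 26 (titled WT embryos from PRE2) and 25 (pupal WT from the gypsy2 viewpoint). Outside the pericentric parts these numbers were 8, 2 and 4, and 3 in larval WT from PRE2. Of the hotspots in the top of each pupal WT library, 3 were shared in each of these 4 sets. Thinning every library to 85599 trans counts kept these numbers within 1.5 times. DESeq2 called 0 bins between viewpoints in titled WT embryos, 22 in larval gypsy2 against WT from PRE2 and 427 from the gypsy2 viewpoint, 23 in gypsy2 against titled WT embryos, 1 in gypsy1 against WT embryos and 1736 in pupal gypsy2 against WT from the gypsy2 viewpoint. In gypsy2 against titled WT embryos, 0 bins were called without normalization factors or with a mean count of at least 1. Without 1 replicate, calls numbered 0 to 2 between viewpoints in titled WT embryos, 0 to 1 in larval WT, 0 to 1 in larval gypsy2 against WT from PRE2 and 0 to 2 in gypsy2 against titled WT embryos. The cause was not tested. Replicate numbers were not taken as pairs. With the replicate block 3 bins, all hotspots, were lower in gypsy1 than in WT embryos, against 0 bins called without it, so that result depends on this choice. Between viewpoints without replicate block the *Snap25* bin had a log2 fold change of 2.30 (edgeR adjusted p = 0.000722). Against WT embryos of replicates 1 to 3 in place of titled WT, 5 bins were called in gypsy2 embryos and the log2 fold change of the bin at X:23439001 turned to 1.69, against -0.69; no other alternative run reversed a direction. Depth limits the rest: 72 hotspots fell under the mean count of 5 in gypsy1 against WT embryos, and 54 in larval gypsy2 against WT from PRE2, and were not tested there.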
